A study of Mus musculus with 9 samples.

Results

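NADPH oxidases are membrane enzymes that pass electrons from NADPH to oxygen and so make superoxide or hydrogen peroxide, and 7 genes of this family are described here across the 9 libraries of a mouse study of abdominal aortic aneurysm. They are Cybb, Cyba, Ncf1, Ncf4 and Rac2 of the phagocyte enzyme and Nox1 and Nox4, the catalytic subunits of vascular enzymes. Members were found by their Entrez Gene ID, which gave 7 of the 18830 genes in the count tables. They were chosen with earlier results of these data known. The RNA came from suprarenal abdominal aortas of mice that lack ApoE, a strain prone to atherosclerosis. One group of 3 libraries followed 28 days of angiotensin II (Ang II), the peptide hormone that raises blood pressure and is used to induce aneurysm, and another group of 3 followed 14 days. Both received 1000 ng/kg/min from an osmotic pump. The comparison group was 3 libraries labelled sham control, which the study text calls saline-treated, and these mice carried the same ApoE deletion. The day on which sham aortas were taken, the age of the mice and whether each library came from 1 animal are not stated in the labels. The p-values below therefore measure the spread between these libraries only.

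As background, the phagocyte enzyme is built around NOX2 (gp91phox, encoded by Cybb), which is stable only in the membrane together with p22phox (encoded by Cyba). It is silent until cytosolic subunits, among them p47phox (Ncf1) and p40phox (Ncf4), and a Rac GTPase, mainly Rac2 in blood cells, move to the membrane. The vascular enzymes use the same p22phox but another catalytic subunit. NOX1, described in smooth muscle of large arteries, also needs cytosolic partners, while NOX4 is active whenever it is made and releases mostly hydrogen peroxide. In the aneurysmal aorta the phagocyte subunits are known from invading macrophages and neutrophils as well as from cells of the adventitia, and NOX4 from smooth muscle and endothelium.

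Library totals ran between 9609690 and 14923936 expected counts, and 14741 genes were tested. Apoe itself was read in all 9 libraries, with 23.0, 171 and 269.8 CPM (read counts scaled to a common library total) at 28 days, 162, 648 and 159.7 CPM at 14 days and 22.5, 87.5 and 70.3 CPM in sham. The table counts whole genes, so these values do not check the deletion. Markers of smooth muscle were read in every library, and the labels give the tissue as aorta while the sample titles carry the word muscle. Markers of kidney summed to at most 0.98 CPM in any library. Fat markers summed to between 5083 and 22288 CPM. Nerve markers were high in 28-day replicates 2 and 3 (2386 and 1128 CPM), 14-day replicate 1 (2195 CPM) and sham replicate 2 (5202 CPM), and between 25.9 and 239 CPM in the other libraries. Skeletal muscle markers summed to 13330 and 4438 CPM in 28-day replicates 1 and 2 and to at most 91.8 CPM elsewhere.

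The 5 phagocyte subunit genes had higher mean levels after Ang II than in sham at both times, and Nox4 had lower mean levels at both times. Cybb, Ncf1, Ncf4 and Rac2 were higher in all 6 Ang II libraries than in all 3 sham libraries, whereas the Cyba and Nox4 groups overlapped. Of all genes, 12.2% lay above sham without overlap at 28 days and 12.6% at 14 days, and 9.46% and 13.5% lay below it. In edgeR's quasi-likelihood test with Benjamini-Hochberg adjustment over all genes, 0 members passed 0.05 in any of the 3 comparisons, as did 0.0% of the 14741 genes tested. At an unadjusted p under 0.05, edgeR counted 4 of the 5 phagocyte genes higher at 28 days than in sham, where 7.96% of all genes were, and all 5 at 14 days, where 13.1% were. Nox4 was lower by the same measure at both times, beside 5.89% of all genes at 28 days and 10.4% at 14 days. DESeq2, the other count test run, called Cybb, Ncf1, Ncf4 and Rac2 higher and Nox4 lower at 28 days, beside 3.89% of all genes higher and 2.69% lower. At 14 days DESeq2 called the 5 phagocyte genes higher, beside 8.6% of all genes, and did not call Nox4, where 4.77% of all genes were lower. Between 28 and 14 days neither tool called a member, and DESeq2 called 0.59% of genes higher and 0.21% lower. That comparison had 0 members at an unadjusted p under 0.05, where 3.86% of all genes were higher and 2.27% lower at 28 days, and 0 members without overlap, where 4.35% and 5.71% were. Log2 fold changes below are edgeR's unless DESeq2 is named. Limma-voom called 0 members and 0 genes in each comparison. The DESeq2 count at 28 days depended on single libraries: it was 0 of 6 without 28-day replicate 2, 2 without 28-day replicate 3 or without sham replicate 3, 3 without sham replicate 2 and 4 without sham replicate 1. At 14 days it stayed between 4 and 5 with any 1 library left out. The share of all genes called in these reduced fits is not given here. In these bulk libraries, fewer cells of a type and less RNA per cell cannot be told apart.

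Cybb (Entrez 13058, GRCm38.p6 chromosome X, 9435252 to 9487771, minus strand) had 48.2, 91.3 and 96.7 CPM in 28-day replicates 1 to 3, 63.0, 239 and 81.5 CPM in 14-day replicates 1 to 3, and 34.7, 10.2 and 20.3 CPM in sham replicates 1 to 3. All 6 Ang II libraries lay above the highest sham library, and 14-day replicate 2 was the highest by far. The means were 78.7 ± 26.6 CPM at 28 days, 128 ± 96.6 CPM at 14 days and 21.7 ± 12.4 CPM in sham (SD, n = 3 each). The log2 fold change against sham was 1.86 ± 0.63 (SE) at 28 days, a 3.63-fold difference, with an adjusted p of 0.254 from edgeR and 0.0389 from DESeq2. At 14 days it was 2.56 ± 0.64, a 5.89-fold difference, with an adjusted p of 0.117 from edgeR and 0.00102 from DESeq2, and it was 1.76 without 14-day replicate 2. The DESeq2 call at 28 days was lost without 28-day replicate 2 (adjusted p 0.245), 28-day replicate 3 (0.216), sham replicate 2 (0.125) or sham replicate 3 (0.168). It was also lost without the nerve-rich 28-day replicate 2, 14-day replicate 1 and sham replicate 2 together (0.273), where edgeR's log2 fold change was 1.37. Levels at 28 days differed from those at 14 days by -0.70 ± 0.61 on the log2 scale, and by 0.13 once 14-day replicate 2 was left out.

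The upstream sequences of the NOX2 and NOX4 genes are shown here because the levels of these catalytic subunits differed from sham in opposite directions. Each is the 250 bases before the RefSeq start on GRCm38.p6, written 5′ to 3′ on the gene's strand, and capitals mark the only motif matches found.
Cybb: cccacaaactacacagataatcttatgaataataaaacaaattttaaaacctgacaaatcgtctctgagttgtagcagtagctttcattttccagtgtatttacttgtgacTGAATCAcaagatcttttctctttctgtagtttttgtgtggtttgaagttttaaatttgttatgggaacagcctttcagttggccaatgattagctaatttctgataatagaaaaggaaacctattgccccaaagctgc
Nox4: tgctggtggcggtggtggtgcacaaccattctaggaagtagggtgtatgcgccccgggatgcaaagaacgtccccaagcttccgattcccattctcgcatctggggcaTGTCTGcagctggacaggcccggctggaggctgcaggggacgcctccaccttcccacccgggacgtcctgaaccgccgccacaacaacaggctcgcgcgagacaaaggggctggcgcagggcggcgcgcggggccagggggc
The Cybb window (chrX:9469325-9469574, minus strand) had a GC content of 34.0% and 1 CG pair, and the Nox4 window (chr7:87246399-87246648, plus strand) had 67.2% and 20 CG pairs. The median over 32851 upstream windows of the same length was 52.4% with 6 CG pairs, so the windows lay on opposite sides of it. The capitals in Cybb mark TGAATCA, a match to TGANTCA (N for any base), which was searched as a loose form of the AP-1 element. That pattern reads the same on both strands, although the marked letters do not, and it was found in 6.75% of all windows. The capitals in Nox4 mark CAGACA, the SMAD element, on the opposite strand, which was found in 17.1% of all windows. Both windows lie in an intron of a longer GENCODE transcript of the same gene. Of the 7 members, 5 had an entry in the RefSeq promoter table. Cyba (GC content 60.0%) and Ncf1 (54.4%) had no match to any motif searched, and the Nox1 window (38.0%) held GAGGAA and the NF-kB element, found in 23.3% and 7.25% of all windows. The other elements searched on both strands were TATAAA, found in 12.4% of windows, and the CArG box of smooth muscle genes, found in 1.47%, and neither was in a member's window. A match describes these letters only and is not a measured site.

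Cyba (Entrez 13057, chromosome 8, 122424776 to 122432930, minus strand), whose p22phox partners both NOX2 and the vascular catalytic subunits, had 92.9, 125 and 125 CPM in 28-day replicates 1 to 3. It had 96.7, 519 and 137 CPM in the 14-day replicates and 116, 18.3 and 43.1 CPM in the sham replicates. The sham libraries ranged more widely than the 28-day libraries, and sham replicate 1 was higher than 28-day replicate 1 and 14-day replicate 1. Group means were 114 ± 18.5 CPM at 28 days, 251 ± 233 CPM at 14 days and 59.2 ± 50.9 CPM in sham. The log2 fold change against sham was 0.95 ± 0.78 at 28 days (adjusted p 0.712 by edgeR, 0.632 by DESeq2) and 2.08 ± 0.80 at 14 days (0.175 by edgeR, 0.0354 by DESeq2). At 28 days it was 1.89 without sham replicate 1 and 0.52 without sham replicate 2, and at 14 days it was 1.01 without 14-day replicate 2 and 3.03 without sham replicate 1. The DESeq2 call at 14 days was lost without 14-day replicate 2 (adjusted p 0.439), sham replicate 2 (0.104), sham replicate 3 (0.177), 28-day replicate 1 (0.0514) or 28-day replicate 3 (0.0577). Cyba was the one phagocyte subunit whose groups overlapped.

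Ncf1 (Entrez 17969, chromosome 5, 134220053 to 134229625, minus strand) encodes p47phox, the organizer that carries the cytosolic subunits to the membrane. Its levels were 35.1, 92.4 and 60.9 CPM at 28 days, 31.3, 169.7 and 87.8 CPM at 14 days and 14.8, 6.72 and 12.4 CPM in sham. All 6 Ang II libraries lay above the highest sham library. The group means were 62.8 ± 28.7 CPM at 28 days, 96.3 ± 69.6 CPM at 14 days and 11.3 ± 4.15 CPM in sham. Against sham, Ncf1 differed by 2.48 ± 0.65 on the log2 scale at 28 days (adjusted p 0.215 by edgeR, 0.00396 by DESeq2) and by 3.09 ± 0.66 at 14 days (0.117 by edgeR, 9.6e-05 by DESeq2). The DESeq2 call at 28 days was lost without 28-day replicate 2 (adjusted p 0.0936). Without 28-day replicate 2, 14-day replicate 1 and sham replicate 2, the nerve-rich libraries, the log2 fold change at 28 days was 1.79. DESeq2 still called Ncf1 there (adjusted p 0.00878). Its direction against sham held with every library left out in turn, with log2 fold changes of 2.09 to 2.76 at 28 days and 2.42 to 3.51 at 14 days.

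Ncf4 (Entrez 17972, chromosome 15, 78244801 to 78262580, plus strand) encodes p40phox, which binds a membrane lipid of phagosomes and helps to keep the enzyme active there. It had 9.52, 33.0 and 20.0 CPM at 28 days, 11.3, 59.5 and 37.2 CPM at 14 days and 6.39, 1.72 and 4.18 CPM in sham. The Ang II and sham groups did not overlap, although 28-day replicate 1 and 14-day replicate 1 were close to sham replicate 1. The log2 fold change against sham was 2.35 ± 0.74 at 28 days (adjusted p 0.239 by edgeR, 0.0229 by DESeq2) and 3.14 ± 0.77 at 14 days (0.117 by edgeR, 0.000617 by DESeq2). The DESeq2 call at 28 days was lost without 28-day replicate 2 (adjusted p 0.276), 28-day replicate 3 (0.0991), sham replicate 2 (0.0852) or sham replicate 3 (0.102). Without the 3 nerve-rich libraries (28-day replicate 2, 14-day replicate 1 and sham replicate 2) the log2 fold change at 28 days was 1.46, and DESeq2 did not call Ncf4 (adjusted p 0.1).

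Rac2 (Entrez 19354, chromosome 15, 78559167 to 78572783, minus strand), the GTPase of blood cells that switches the phagocyte enzyme on, was higher in all 6 Ang II libraries than in sham. It had 54.6, 311 and 124 CPM in 28-day replicates 1 to 3, 74.2, 246 and 513 CPM in 14-day replicates 1 to 3, and 27.0, 10.4 and 17.6 CPM in sham replicates 1 to 3. The highest libraries were 14-day replicate 3 and 28-day replicate 2, not the library that was highest for Cybb, Cyba, Ncf1 and Ncf4. Mean levels were 163 ± 133 CPM at 28 days, 277 ± 221 CPM at 14 days and 18.3 ± 8.32 CPM in sham. The difference from sham on the log2 scale was 3.16 ± 0.86 at 28 days (adjusted p 0.217 by edgeR, 0.00236 by DESeq2) and 3.92 ± 0.89 at 14 days (0.117 by edgeR, 5.27e-05 by DESeq2). It was 2.29 at 28 days without 28-day replicate 2, where DESeq2 did not call it (adjusted p 0.0969), and 3.13 at 14 days without 14-day replicate 3. Without the 3 nerve-rich libraries the difference at 28 days was 1.97, and DESeq2 still called Rac2 there (adjusted p 0.0137).

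Nox4 (Entrez 50490, chromosome 7, 87246096 to 87398710, plus strand), the constitutively active subunit, was lower in the means after Ang II. It had 73.2, 22.4 and 35.4 CPM in 28-day replicates 1 to 3, 77.4, 53.2 and 69.9 CPM in 14-day replicates 1 to 3, and 279, 67.6 and 153 CPM in sham replicates 1 to 3. Sham replicates 1 and 3 were above all 6 Ang II libraries, and sham replicate 2 lay among them. Mean levels were 43.7 ± 26.4 CPM at 28 days, 66.8 ± 12.4 CPM at 14 days and 167 ± 106 CPM in sham. The log2 fold change against sham was -1.93 ± 0.58 at 28 days (adjusted p 0.228 by edgeR, 0.0165 by DESeq2). At 14 days it was -1.32 ± 0.57 (0.212 by edgeR, 0.105 by DESeq2), and -0.72 without sham replicate 1. At 28 days the log2 fold change was -1.34 without sham replicate 1 and -2.53 without 28-day replicate 1. The DESeq2 call at 28 days was lost without sham replicate 1 (adjusted p 0.193), sham replicate 3 (0.0859), 28-day replicate 2 (0.14) or 28-day replicate 3 (0.117). DESeq2 called Nox4 lower at both times without sham replicate 2 (0.000876 at 28 days and 0.0215 at 14 days). The same held without the 3 nerve-rich libraries (0.00539 at 28 days and 0.00523 at 14 days).

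Nox1 (Entrez 237038, chromosome X, 134086421 to 134221956, minus strand) was at the limit of what these libraries could count. Its expected counts were 1.25, 3.41 and 0 at 28 days, 1.12, 0 and 1.13 at 14 days and 0, 3.58 and 2.22 in sham. A count of 0 allows up to 0.204 to 0.328 CPM in these libraries, taking 3 counts as the limit and counting error only. Nox1 was therefore not tested, and no difference between groups was detectable at this depth. None of its counts above 0 was a whole number, and 15.6% of its exon length lies under exons of Cstf2 on the other strand. The exons of the other 6 members overlap no other gene.

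**Figure D1:**
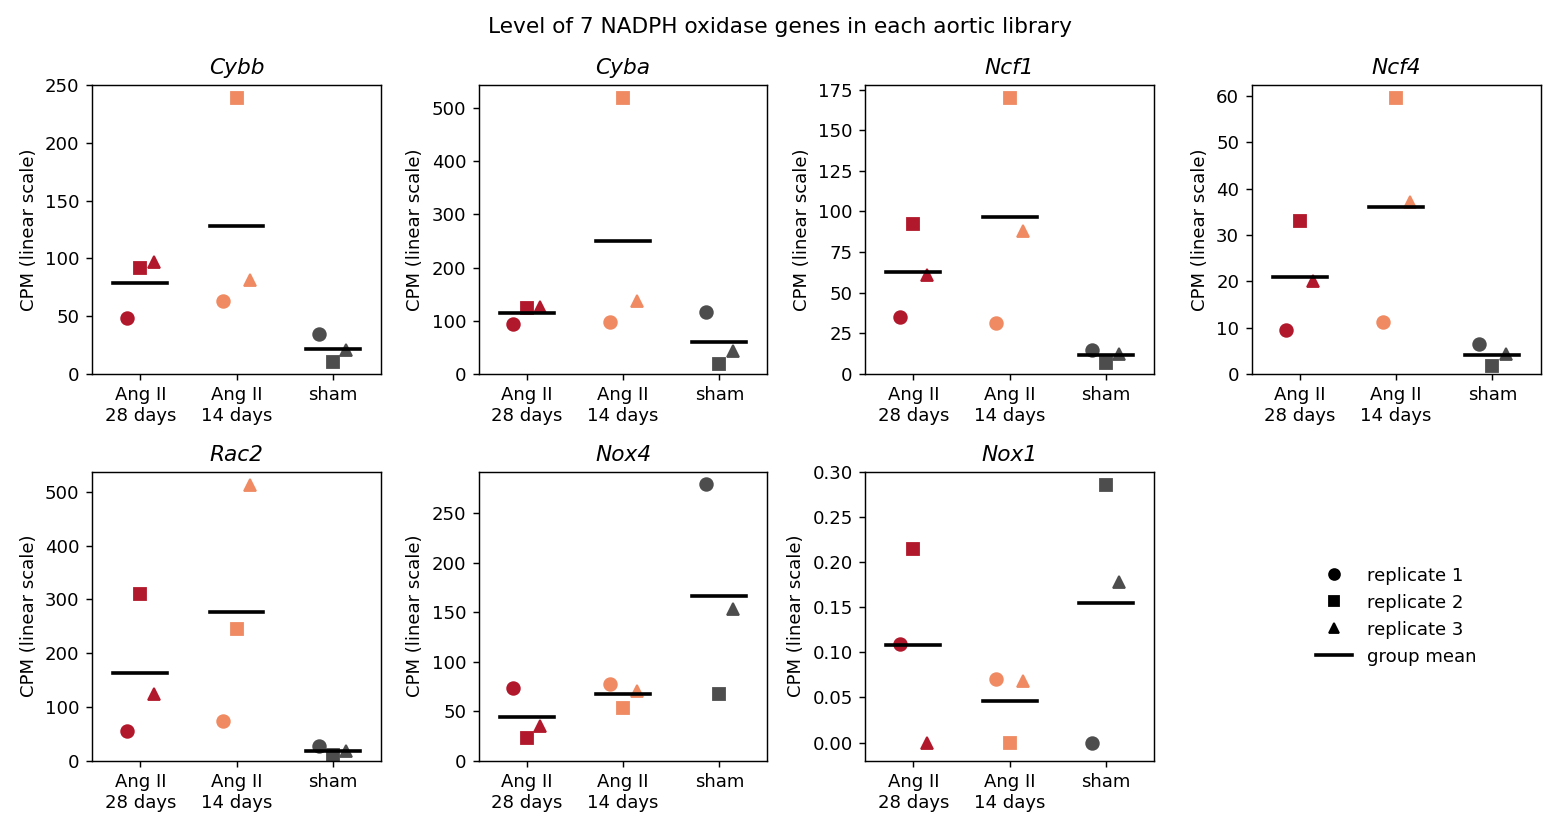
Level of each of the 7 genes in each library, in CPM on linear axes that differ between panels, with 1 point per library, marker shape for the replicate number and a bar for the group mean. Cybb, Ncf1, Ncf4 and Rac2 lie above all sham libraries in all 6 Ang II libraries, Nox4 is highest in sham replicate 1 (279 CPM), and Nox1 does not reach 0.30 CPM.

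Per kilobase of exon, the order of the members differed between Ang II and sham. At 28 days the means ran from Cyba (154 CPM per kb) through Rac2 (53.7), Ncf1 (21.8), Cybb (16.6), Ncf4 (14.2) and Nox4 (11.1) to Nox1 (0.042). At 14 days the order was the same, with means of 337 CPM per kb for Cyba, 91.3 for Rac2, 33.4 for Ncf1, 26.9 for Cybb, 24.6 for Ncf4, 16.9 for Nox4 and 0.018 for Nox1. In sham Nox4 came next after Cyba, with 42.2 CPM per kb against 79.6 for Cyba, and Rac2 (6.03), Cybb (4.57), Ncf1 (3.92) and Ncf4 (2.80) followed. In all 3 groups most neighbours in the order overlapped in their libraries. Those that did not were Cyba above Rac2 at 28 days, Nox4 above Rac2 in sham, and the gene before Nox1 in each group.

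The balance of the catalytic subunits differed between Ang II and sham libraries without overlap. The log2 ratio of Cybb to Nox4, in CPM per kb, was -0.87, 1.76 and 1.18 in 28-day replicates 1 to 3, -0.57, 1.90 and -0.05 in 14-day replicates 1 to 3, and -3.27, -3.0 and -3.18 in sham replicates 1 to 3. In sham Nox4 was the more abundant in every library and the ratio had a mean of -3.15 ± 0.14 (SD), although each gene on its own varied over a wide range among the same libraries. After Ang II the mean ratio was 0.69 ± 1.38 at 28 days and 0.43 ± 1.3 at 14 days, and the ratio was above 0 in 3 of the 6 libraries. An exact two-sided permutation test of 3 libraries against 3 cannot give a p under 0.1, and the ratio is given as a description with no test. The log2 ratio of Cyba to Nox4 also left no overlap, at 2.75, 4.89 and 4.23 at 28 days, 2.73, 5.69 and 3.38 at 14 days and 1.14, 0.52 and 0.58 in sham.

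Within the phagocyte enzyme, the ratios of Cyba and Ncf1 with Cybb ranged less than their levels did. The log2 ratio of Cybb to its membrane partner Cyba stayed between -4.42 and -3.05 over all 9 libraries. That of Ncf1 to Cybb stayed between -0.51 and 0.83. Rac2 departed from the others in 28-day replicate 2 and 14-day replicate 3, where its log2 ratio to Cybb was 2.41 and 3.30, against 0.28 to 1.00 in the other 7 libraries. Set against Ptprc, which encodes the pan-leukocyte antigen CD45, Rac2 had a log2 ratio between 0.94 and 1.08 at 28 days, between 1.12 and 1.23 at 14 days and between 0.45 and 0.95 in sham. Cybb set against Ptprc ranged more widely, from -1.33 to 0.11 at 28 days, from -2.07 to 0.43 at 14 days and from -0.23 to 0.67 in sham.

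**Figure D2:**
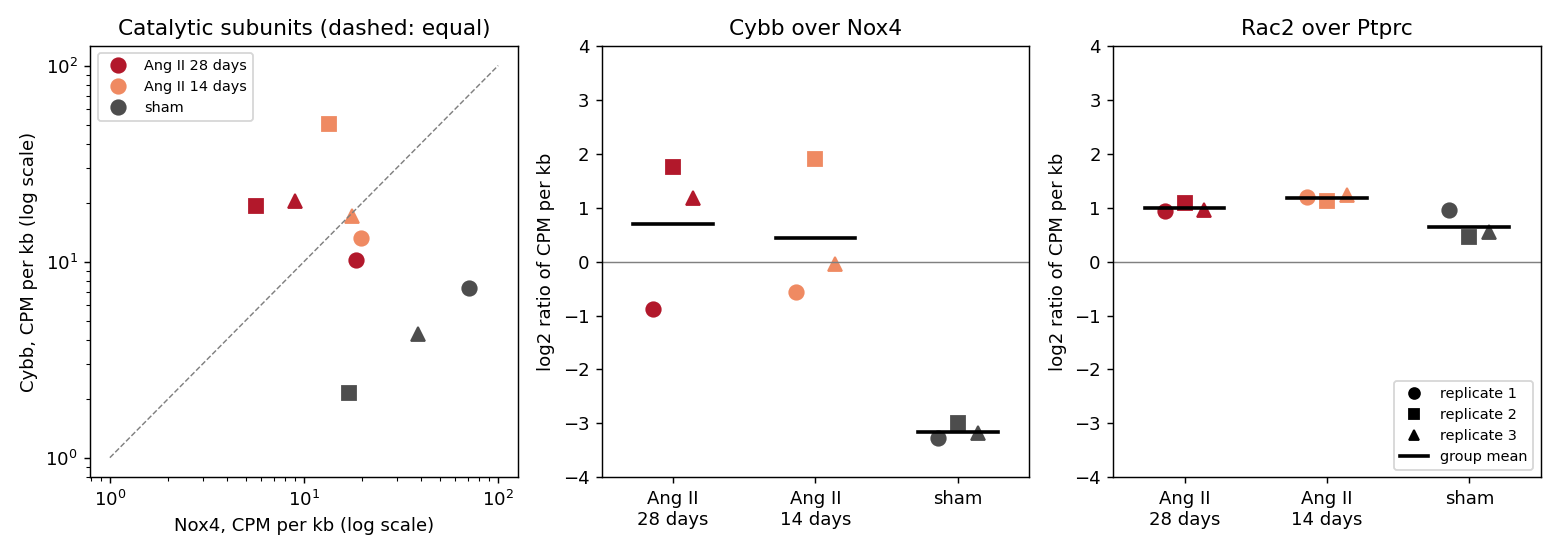
Left, Cybb against Nox4 in CPM per kb, both axes logarithmic and the dashed line marking equal levels, with 1 point per library. Middle and right, log2 ratios of CPM per kb for Cybb over Nox4 and Rac2 over Ptprc in each library, with a bar for the group mean. All 3 sham libraries have a Cybb to Nox4 ratio between -3.27 and -3.0, and all 6 Ang II libraries lie at -0.87 or above, while Rac2 over Ptprc keeps between 0.45 and 1.23.

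The other genes of the oxidase family were read from a list of 13, of which 12 were in the tables and 9 were tested. Their median log2 fold change against sham was 0.14 at 28 days and -0.24 at 14 days, where the median of all genes was -0.08 and -0.07. At an unadjusted p under 0.05 edgeR counted 2 higher and 1 lower at 28 days, and 2 higher and 0 lower at 14 days. DESeq2 called 1 higher at 28 days and 2 higher at 14 days. Of all genes, edgeR counted 7.96% higher and 5.89% lower at 28 days, and 13.1% and 10.4% at 14 days. DESeq2 called 3.89% of all genes higher at 28 days and 8.6% at 14 days.

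Hvcn1, the proton channel that offsets the charge the phagocyte enzyme moves, had 29.7, 163 and 54.5 CPM at 28 days, 27.0, 115 and 223.6 CPM at 14 days and 30.2, 6.65 and 7.56 CPM in sham. It was highest in the same pair of libraries as Rac2, and its groups overlapped. DESeq2 gave an adjusted p of 0.0577 at 28 days and 0.00768 at 14 days. Cybc1, a chaperone of the NOX2 and p22phox pair, had log2 fold changes of 0.54 ± 0.34 at 28 days and 0.88 ± 0.34 at 14 days, and did not pass edgeR or DESeq2. Rap1a, a small GTPase found with the membrane subunits, differed little but evenly, with 124 ± 3.09 CPM at 28 days, 120 ± 7.32 CPM at 14 days and 98.2 ± 8.08 CPM in sham. DESeq2 called it at 28 days (DESeq2 log2 fold change 0.34 ± 0.11, adjusted p 0.0407) and at 14 days (0.31 ± 0.11, adjusted p 0.0439), and edgeR did not.

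Rac1, the broadly expressed relative of Rac2, had 342 ± 17.7 CPM at 28 days, 388 ± 65.6 CPM at 14 days and 304 ± 5.60 CPM in sham. Its log2 fold changes of 0.17 ± 0.18 at 28 days and 0.35 ± 0.18 at 14 days did not pass, although neither Ang II group overlapped with sham. The log2 ratio of Rac2 to Rac1 in CPM per kb was -2.25, 0.40 and -0.97 at 28 days, -1.78, -0.44 and 1.04 at 14 days and -2.99, -4.42 and -3.65 in sham, so Rac2 exceeded Rac1 only in 28-day replicate 2 and 14-day replicate 3. Rac3, expressed mainly in neurons, had log2 fold changes of -0.51 ± 0.65 at 28 days and -0.24 ± 0.65 at 14 days.

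Among the partners of the vascular and epithelial enzymes, Noxo1, the organizer that NOX1 uses, averaged 2.42 ± 0.64 CPM at 28 days, 2.96 ± 0.55 CPM at 14 days and 6.31 ± 3.96 CPM in sham. Its log2 fold change was -1.37 ± 0.56 at 28 days, which was under 0.05 unadjusted, and -1.08 ± 0.55 at 14 days. Poldip2, reported to bind p22phox and to raise NOX4 activity, had 128 ± 39.0 CPM at 28 days, 89.4 ± 7.94 CPM at 14 days and 141 ± 49.3 CPM in sham, and was lower in all 3 libraries at 14 days than in sham without passing either tool. Duox1 and Duox2, the dual oxidases of epithelia, averaged at most 3.0 CPM in any group and did not pass. Noxa1, the NOX1 activator, and the maturation factors Duoxa1 and Duoxa2 averaged at most 0.84 CPM and were too low to be tested. Much of the exon length of Hvcn1 (52.5%), Rac1 (54.8%) and Noxo1 (60.2%) lies under a gene on the opposite strand, and the labels do not say whether the counting used strand.

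**Figure D3:**
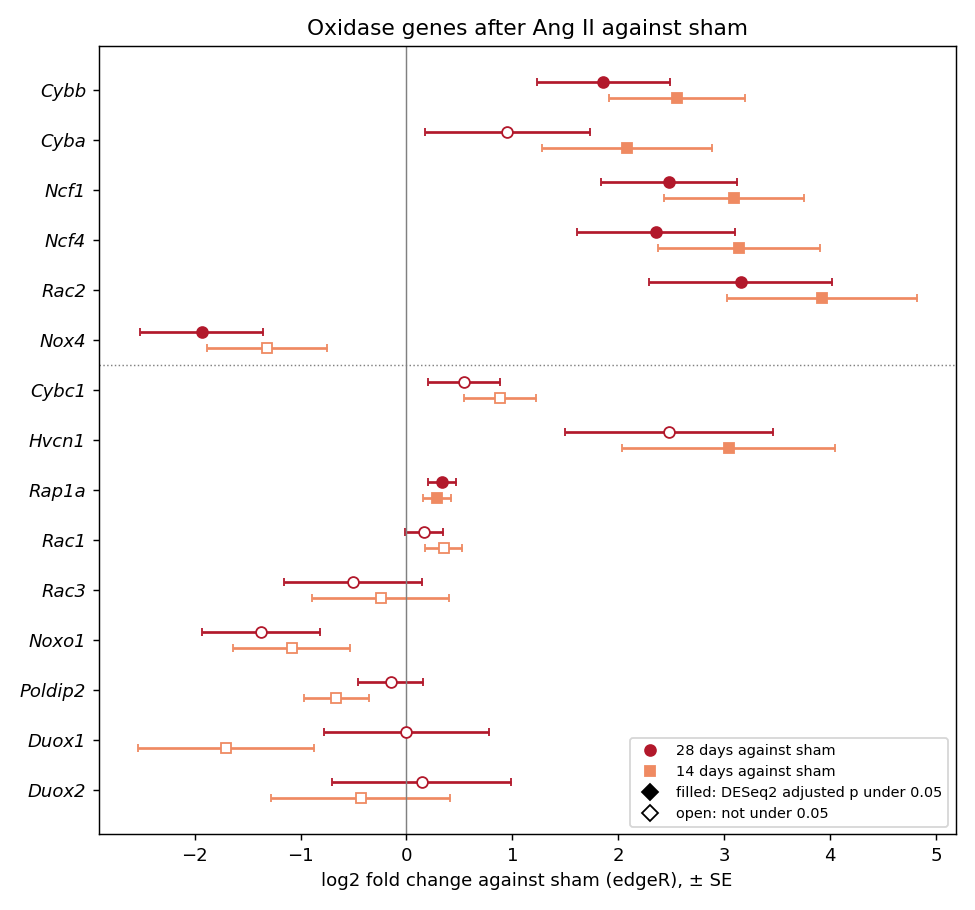
Log2 fold change against sham from edgeR, with bars of 1 SE, at 28 days (circles) and 14 days (squares) for the 6 members tested, above the dotted line, and for the other 9 tested oxidase genes, below it. Filled symbols passed DESeq2 at an adjusted p under 0.05; the phagocyte subunits lie between 0.95 and 3.92, Nox4 at -1.93 and -1.32, and Rac1 near 0.

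Activation of the phagocyte enzyme depends on surface receptors, kinases that phosphorylate p47phox and exchange factors that load Rac, and 19 such genes were read, all tested. Their median log2 fold change against sham was 1.57 at 28 days and 2.22 at 14 days. At 28 days edgeR counted 9 higher and 1 lower at an unadjusted p under 0.05, and DESeq2 called 8 higher and 0 lower. At 14 days edgeR counted 13 higher and 0 lower, and DESeq2 called 11 higher and 0 lower. Of all genes, edgeR counted 7.96% higher and 5.89% lower at 28 days, and 13.1% and 10.4% at 14 days. DESeq2 called 3.89% of all genes higher and 2.69% lower at 28 days, and 8.6% and 4.77% at 14 days. The 3 most abundant of the 19 were the GDP dissociation inhibitors Arhgdia and Arhgdib, which hold Rac in the cytosol, and Itgb2, the integrin chain of leukocytes. Arhgdib, the form of blood cells, had 186 ± 87.7 CPM at 28 days, 327 ± 188 CPM at 14 days and 44.4 ± 10.9 CPM in sham, with a DESeq2 adjusted p of 0.0064 at 28 days and 2.79e-05 at 14 days. Arhgdia, the widely expressed form, had 551 ± 51.6 CPM at 28 days, 823 ± 306 CPM at 14 days and 581 ± 93.8 CPM in sham and passed neither tool. Itgb2 had 102 ± 33.1 CPM at 28 days, 227 ± 176 CPM at 14 days and 34.5 ± 30.7 CPM in sham, with a DESeq2 adjusted p of 0.24 at 28 days and 0.00497 at 14 days.

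Cell type markers were read beside these genes. The 12 macrophage and monocyte markers, 2 of which (Fcgr1 and Itgam) are also in the activation list, summed to 2654, 3436 and 4528 CPM at 28 days, 2847, 16239 and 2972 CPM at 14 days and 1892, 444 and 961 CPM in sham. All 12 were higher on average at both times, 11 of 12 without overlap with sham at each time, and none was at 0 in a group. DESeq2 called 1 of them higher at 28 days, the pan-leukocyte Ptprc (adjusted p 0.0043), and 9 at 14 days. It gave no adjusted p for C1qa and C1qb, so it could not call them. At an unadjusted p under 0.05 edgeR counted 6 higher at 28 days and 12 at 14 days. Of all genes, 12.2% lay above sham without overlap at 28 days and 12.6% at 14 days. DESeq2 called 3.89% and 8.6% of all genes higher, and edgeR counted 7.96% and 13.1%. The macrophage and monocyte sum was highest in 14-day replicate 2, where Cybb, Cyba, Ncf1 and Ncf4 were also highest. The 9 neutrophil markers summed to between 24.1 and 45.5 CPM at 28 days, between 22.8 and 94.5 CPM at 14 days and between 4.94 and 11.6 CPM in sham. The 9 T and B cell markers summed to 40.8, 990.1 and 165 CPM at 28 days, 75.9, 84.1 and 1574 CPM at 14 days and 19.5, 11.0 and 11.7 CPM in sham, and the highest libraries were the pair in which Rac2 and Hvcn1 were highest. The part of these cells in the levels of the phagocyte subunits was not tested.

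The 10 smooth muscle markers summed to 7678, 2921 and 2367 CPM at 28 days, 17788, 4217 and 13013 CPM at 14 days and 30701, 10257 and 21666 CPM in sham. At 28 days 9 of the 10 were lower than sham without overlap and were called by DESeq2, and at 14 days 0 were. At each time 1 of the 10 had a log2 fold change above 0, of 1.84 at 28 days and 0.78 at 14 days. Of all genes, 9.46% lay below sham without overlap at 28 days and 13.5% at 14 days, and DESeq2 called 2.69% and 4.77% lower. The log2 ratio of Nox4 to Myh11, the smooth muscle myosin heavy chain, was -3.14, -3.34 and -2.47 in CPM per kb at 28 days, -4.37, -1.77 and -3.94 at 14 days and -3.61, -4.0 and -3.93 in sham. All 3 values at 28 days were above all 3 in sham, and the 14-day values lay on both sides of sham. The same ratio to Acta2, smooth muscle actin, was -6.22, -6.61 and -5.71 at 28 days, -7.70, -6.18 and -7.38 at 14 days and -6.54, -7.06 and -7.03 in sham, where the 28-day and sham libraries overlapped. The part of smooth muscle content in the Nox4 level was not tested. The 8 endothelial markers summed to between 1067 and 1818 CPM at 28 days, between 772 and 1824 CPM at 14 days and between 849.6 and 1153 CPM in sham, and 3 of the 8 lay above sham without overlap at 28 days, 2 of them called higher by DESeq2. At 14 days 0 of the 8 were without overlap. Of all genes, 12.2% lay above sham without overlap at 28 days, where DESeq2 called 3.89% higher. At 14 days 12.6% of all genes lay above sham and 13.5% below it. The 8 fibroblast markers summed to 4639 to 9886 CPM at 28 days, 5475 to 17324 CPM at 14 days and 2964 to 5314 CPM in sham.

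**Figure D4:**
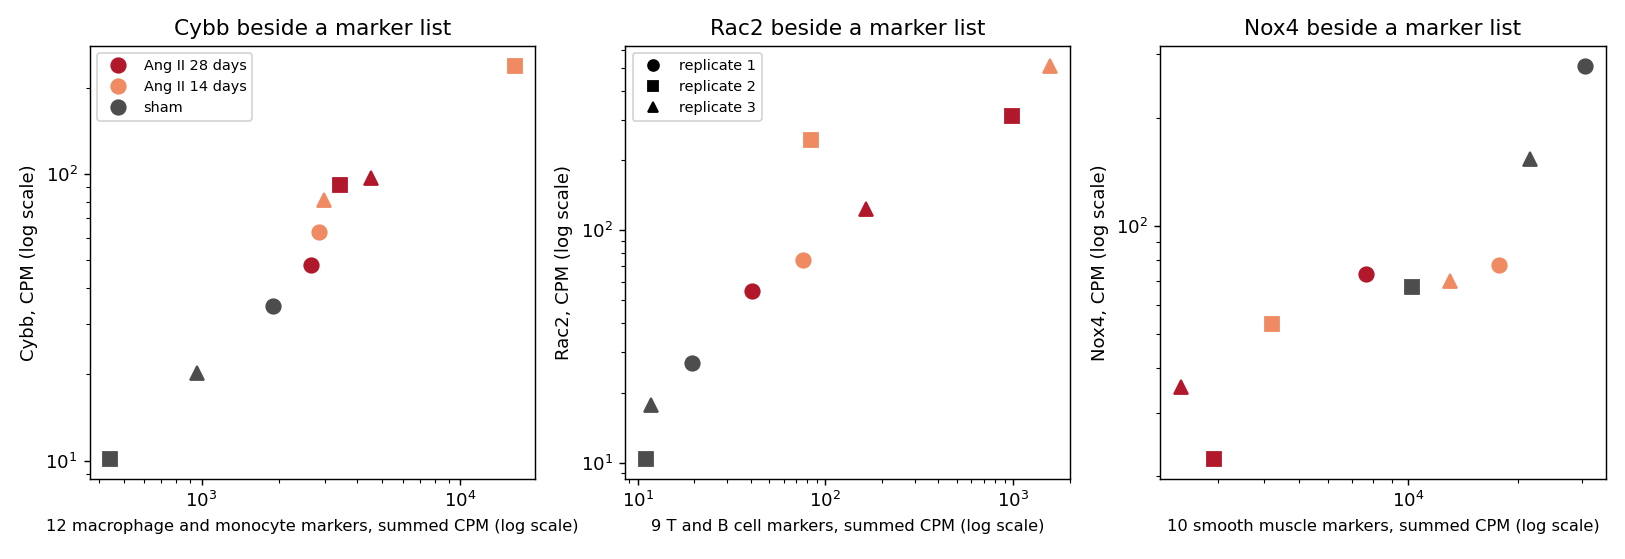
Level of Cybb, Rac2 and Nox4 in CPM against the summed CPM of 12 macrophage and monocyte, 9 T and B cell and 10 smooth muscle markers, all axes logarithmic, with 1 point per library and marker shape for the replicate number. Cybb and the macrophage sum are both highest in 14-day replicate 2 (239 and 16239 CPM), Rac2 and the lymphocyte sum in 14-day replicate 3 (513 and 1574 CPM), and Nox4 and the smooth muscle sum in sham replicate 1 (279 and 30701 CPM).

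The genes most like Cybb over the 9 libraries, among 10741 tested genes with a mean of at least 10 CPM, were Ly86 (Pearson r of log2 CPM 0.994), Naip2, Evi2a and Spi1, the PU.1 transcription factor of myeloid cells, the last 3 with an r of at least 0.9915. Among members, Ncf4 stood at position 62 (r 0.965), Ncf1 at 65 (0.964), Cyba at 106 (0.952) and Rac2 at 409 (0.874), and Nox4 had an r of -0.49. The genes most like Nox4 were Rexo2 and E2f5 (each 0.985), Ift43 (0.982), Pde5a, a cyclic GMP phosphodiesterase of smooth muscle (0.981), and Zfhx3 (0.979). These values describe 9 libraries that share the group differences, the cell mixture and the scaling, and carry no test. Nox1 was too low for such a comparison.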

How the data were processed

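RNA of mouse aortas was measured in 9 libraries, 3 per group, made with an MGIEasy mRNA kit from TRIzol extracts, per the labels' protocols. The authors deposited 1 table of expected counts per gene for each library, in which 9.77% to 11.0% of the genes had a fractional value. The submitters' processing notes name RSEM 1.3.1, HISAT2 2.2.1 and Bowtie2 2.4.5 with GRCm38.p6, and give neither their roles nor the use of strand. Counts were rounded to whole numbers. Entrez IDs gave symbols for 18775 of 18830 genes.

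In edgeR 4.0.16 (R 4.3.3), filterByExpr kept 14741 genes, TMM set the scale, and glmQLFit (robust) with glmQLFTest took in the 3 groups together, with Benjamini-Hochberg adjustment at 0.05. The biological coefficient of variation was 51.3%. The SE is the log2 fold change over the square root of F. CPM use TMM-scaled totals, and CPM per kb divide by the union exon length of GENCODE vM21, which also gave the positions. DESeq2 1.42.0 and limma 3.58.1 gave alternatives. Levels are mean ± SD of 3 libraries. The fits were also run on counts simulated with edgeR's own estimates of spread, and the outcome is not given here. The design assumed FPKM columns for comparing genes, but the tables held counts, so CPM per kb took their place. No libraries agreed within sampling noise. Replicate numbers were not used as pairs.

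The members and lists were chosen with earlier results of these data known. The text names the 7 members, 12 further oxidase genes whatever their values (another gene of the planned list, Nox3, is not in the tables, and 1 more is not reported here), up to 3 genes of each other list by mean CPM, and up to 5 genes most like Cybb and Nox4. Apoe, Ptprc, Fcgr1 and Itgam were named after values were seen.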

Additional observations from a re-analysis of the deposited data

How the results depend on the processing

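The precision is set by 3 libraries per group that differ widely, more than by depth, except for Nox1. The number of members called by edgeR was 0 in each comparison, and it was 0 with limma-voom, RLE factors, no filter, a filter of 5 CPM in 3 libraries, the 2 compared groups alone, limma-trend on log2(CPM per kb + 1), each library left out, and the 3 nerve-rich libraries left out. With the replicate number as a block it was also 0 in each comparison. Same-numbered libraries of different groups had correlations of their deviations from -0.55 to 0.65, and differently numbered ones from -0.73 to 0.72. These ranges overlap, so the correlations cannot show whether libraries were paired, and the labels give the numbers no meaning. The number of members called was 5 at 28 days and 5 at 14 days against sham with DESeq2. At an unadjusted p under 0.05 it was 5 at 28 days and 6 at 14 days, and the cause was not tested. The limma-trend fit and leaving out libraries in DESeq2 were chosen after seeing the data. Leaving out each library in DESeq2 gave 0 to 5 calls at 28 days and 4 to 5 at 14 days against sham, and 0 between 28 and 14 days. Without 28-day replicate 2, 14-day replicate 1 and sham replicate 2, the nerve-rich libraries named in an earlier reading of these data (28-day replicate 3, at 1128 CPM, was kept), DESeq2 called 3 members at 28 days, 6 at 14 days, and 2 between the times (Ncf4 and Rac2, lower at 28 days). The share of all genes that DESeq2 called with libraries left out is not given here, so these counts have no background beside them.

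Directions against sham held for the 6 tested members in all 19 alternatives. Not all of these could change a direction. The unadjusted p reuses the main log2 fold changes, and leaving out a library of the third group keeps the compared libraries the same. Between 28 and 14 days, leaving out 1 library turned the sign for 3 members. Without 14-day replicate 2 the log2 difference became 0.13 for Cybb, within -1.03 to 0.13 over the libraries, and 0.084 for Ncf1, within -1.04 to 0.084. Without 14-day replicate 3 it became 0.027 for Rac2, within -1.64 to 0.027. With plain CPM in place of CPM per kb the log2 ratio of Cybb to Nox4 in sham was -2.89 in place of -3.15, a shift by the exon lengths alone. RLE moved the median gene by at most 0.02 on the log2 scale. The planned limma fit to FPKM and the planned use of FPKM for levels were not run.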

Other observations

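Genes that handle superoxide and peroxide were read from a list of 18, of which 17 were tested, and their median log2 fold change against sham was -0.11 at 28 days and -0.27 at 14 days. At an unadjusted p under 0.05 edgeR counted 0 higher and 1 lower at 28 days, and 1 higher and 3 lower at 14 days, and DESeq2 called 0 at 28 days and 1 higher and 3 lower at 14 days. Of all genes, edgeR counted 7.96% higher and 5.89% lower at 28 days, and 13.1% and 10.4% at 14 days. DESeq2 called 3.89% of all genes higher and 2.69% lower at 28 days, and 8.6% and 4.77% at 14 days. Gpx4, the peroxidase that clears lipid peroxides, had 1487, 717.8 and 1097 CPM at 28 days, 619, 581 and 637 CPM at 14 days and 1540, 895.6 and 1327 CPM in sham. Its 14-day libraries all lay below sham, with a log2 fold change of -1.03 ± 0.32 and an adjusted p of 0.132 from edgeR and 0.0119 from DESeq2. Gpx3, the secreted peroxidase, averaged 2475 ± 1013 CPM at 28 days, 1244 ± 226 CPM at 14 days and 1378 ± 595 CPM in sham, and passed neither tool. Prdx1 averaged 598 ± 73.6 CPM at 28 days, 890.1 ± 829 CPM at 14 days and 450.0 ± 39.9 CPM in sham. It also passed neither edgeR nor DESeq2.

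Of 9 other oxidant sources, edgeR counted 3 higher at 28 days and 2 higher at 14 days at an unadjusted p under 0.05, with 0 lower. The shares of all genes by this measure were 7.96% higher and 5.89% lower at 28 days, and 13.1% and 10.4% at 14 days. DESeq2 called 1 higher and 0 lower at each time, beside 3.89% of all genes higher at 28 days and 8.6% at 14 days. Between 28 and 14 days it called 1 higher, beside 0.59% of all genes. None of these calls was a gene named below. Xdh, xanthine dehydrogenase, had 141 ± 39.5 CPM at 28 days, 150.1 ± 41.0 CPM at 14 days and 88.9 ± 13.5 CPM in sham, without overlap of the Ang II groups with sham. Its log2 fold change was 0.66 ± 0.28 at 28 days and 0.76 ± 0.28 at 14 days, and it passed neither tool. Maoa, a monoamine oxidase, averaged 168 ± 156 CPM at 28 days, 85.3 ± 106 CPM at 14 days and 288 ± 447 CPM in sham. The sham mean rested on the nerve-rich replicate 2 (804 CPM), while sham replicates 1 and 3 had 35.2 and 25.6 CPM. Maob averaged 96.0 ± 17.7 CPM at 28 days, 60.0 ± 43.3 CPM at 14 days and 132 ± 66.8 CPM in sham. The groups overlapped for both.

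The adrenal markers summed to between 5.96 and 10.5 CPM in every library.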
